A study of Mus musculus with 2 samples.

Results

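The mitotic spindle and kinetochore genes are 41 genes, chosen by symbol, whose products build the spindle, attach chromosomes to it, time their separation or divide the cell. All 41 symbols were found among the 32285 genes listed. Their transcripts were counted in single E14 cells, a mouse embryonic stem cell line of 129/Ola background, cultured in serum and leukaemia inhibitory factor. The control culture received a control siRNA and the second an siRNA against Son, which encodes an RNA-binding protein of nuclear speckles; both were transfected with Lipofectamine 2000, and the libraries are called control and sonKD. Cells were detached 24 hours later, frozen, thawed, sorted by 7-AAD, a dye that enters dead cells, and barcoded with 10x Genomics Single Cell 3' v3 chemistry, which tags each captured molecule near its polyadenylated end with a unique molecular identifier (UMI). No genotype differs between the groups, and Son transcripts were still counted in sonKD. Each group held 1 library, so an effect of the siRNA and any other difference between the libraries cannot be told apart, no test was possible, and all intervals below are exact 95% intervals that cover counting error only.

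In a dividing cell these genes are transcribed mainly from the end of DNA replication to mitosis, and many of their products are destroyed as mitosis ends. Kinases drive entry into mitosis and mature the spindle poles, kinesins and microtubule-binding proteins shape the spindle, and the kinetochore couples each centromere to microtubules. The spindle checkpoint holds the anaphase-promoting complex in check until all kinetochores are attached, after which securin and cyclin B are degraded and the chromatids part. Embryonic stem cells have short gap phases and divide fast, so a large part of a culture is in S, G2 or M phase at any time. A pair of promoter elements is known for this class of genes: the CHR element (TTTGAA or the variant TTTAAA), read by the DREAM and MYB-MuvB complexes, and CCAAT boxes, bound by NF-Y.

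Barcodes counted as cells from 2500 UMIs and 1000 genes upward if mitochondrial UMIs did not exceed 10%, which left 4978 in control and 2731 in sonKD. Their median depth was 7737.5 UMIs in control and 11612 in sonKD, so every comparison per cell below was made after thinning each cell at random to 4000 UMIs. The libraries shared 2 cell barcodes. Son itself stood at 169 CPM (UMIs of a gene per 1000000 UMIs of all genes; interval 165 to 173) in control and at 106 (102 to 109) in sonKD, which is 62.7% of the control level. Stem cell markers fitted the label: 10 markers summed to 8697 CPM in control and 9439 in sonKD, of which Dppa5a made up 5027 and 6075, and Pou5f1 stood at 1104 and 916. Markers of fibroblasts, primitive endoderm and trophoblast summed to between 3.45 and 12.7 CPM per list and library, none of their genes reached 10 CPM, and Col3a1, Lum, Postn and Elf5 were at 0 in both. The share of UMIs from ribosomal protein genes was 20.7% and 24.1%, and that from mitochondrial genes 3.82% and 4.19%. The part of these shares in the results on members was not tested.

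The proximal promoters of the members shared sequence that their choice did not use. RefSeq promoters on GRCm38.p6, from 250 bases before to 50 bases after the annotated start, were at hand for 36 of the 41 members, and Aurkb, Incenp, Spc24, Kif20a and Tpx2 had no entry. TTTGAA, on either strand, occurred in 28 of the 36 (77.8%), against 18.1% of the promoters of 27025 genes and 11.8% of those of 6471 genes that averaged 10 CPM or more here. TTTAAA, which reads the same on both strands, occurred in 9 (25.0%), against 13.3% of all. CCAAT, on either strand, occurred in 27 members (75%), against 37.8% of all, and at least 2 copies in 19 (52.8%), against 12% of all. Both a CHR-like hexamer and CCAAT were present in 25 members (69.4%), against 10.8% of all. A CCAAT match that runs into its own reverse complement counts on each strand. With 1 promoter per gene, 27 of 34 TTTGAA matches lay within 60 bases of the start, with a median offset of 3.5 bases after it, whereas the median offset of 62 CCAAT matches was -61.5. Such matches are letters in a window and not measured sites. The windows of Cdca3, Cdca8, Kif2c, Kif4 and Pttg1 lie wholly within the span of the gene in GENCODE M21. They do not reach the outermost start annotated there.

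Promoters are shown for the 5 members on which the description over cells turns most, each with the motifs, and for Nusap1 and Pttg1, whose windows hold none of them. The Pttg1 window lies within the gene as annotated in GENCODE M21, so the sequence before its outermost start is not shown. They run 5′ to 3′ on the strand of the gene, with matches to either hexamer and to CCAAT in capitals; a match on the opposite strand reads TTCAAA for the first hexamer and ATTGG for the CCAAT box. The intervals on GRCm38.p6 are chr2:164769679-164769978 (plus strand) for Ube2c, chr1:189688037-189688336 (minus) for Cenpf, chr7:80294201-80294500 (plus) for the first of the Prc1 entries, chr11:99024140-99024439 (minus) for Top2a, chr7:122159185-122159484 (plus) for Plk1, chr2:119618048-119618347 (plus) for Nusap1 and chr11:43425932-43426231 (minus) for Pttg1.
Ube2c: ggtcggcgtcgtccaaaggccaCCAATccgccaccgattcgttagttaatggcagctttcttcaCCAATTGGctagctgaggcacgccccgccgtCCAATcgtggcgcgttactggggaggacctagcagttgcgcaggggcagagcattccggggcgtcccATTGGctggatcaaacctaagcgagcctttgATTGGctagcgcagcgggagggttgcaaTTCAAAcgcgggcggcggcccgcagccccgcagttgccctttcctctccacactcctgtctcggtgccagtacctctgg
Cenpf: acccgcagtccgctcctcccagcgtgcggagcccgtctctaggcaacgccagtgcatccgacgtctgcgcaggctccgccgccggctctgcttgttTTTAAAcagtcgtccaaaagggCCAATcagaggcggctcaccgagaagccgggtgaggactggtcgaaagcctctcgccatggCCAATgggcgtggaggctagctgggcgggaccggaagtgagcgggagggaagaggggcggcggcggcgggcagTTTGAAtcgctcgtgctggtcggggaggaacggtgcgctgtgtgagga
Prc1: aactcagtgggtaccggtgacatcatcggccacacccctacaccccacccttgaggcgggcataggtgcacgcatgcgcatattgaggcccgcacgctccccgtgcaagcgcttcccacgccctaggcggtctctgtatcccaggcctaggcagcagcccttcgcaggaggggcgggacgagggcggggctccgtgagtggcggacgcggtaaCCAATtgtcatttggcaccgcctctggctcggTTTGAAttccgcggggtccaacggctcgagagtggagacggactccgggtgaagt
Top2a: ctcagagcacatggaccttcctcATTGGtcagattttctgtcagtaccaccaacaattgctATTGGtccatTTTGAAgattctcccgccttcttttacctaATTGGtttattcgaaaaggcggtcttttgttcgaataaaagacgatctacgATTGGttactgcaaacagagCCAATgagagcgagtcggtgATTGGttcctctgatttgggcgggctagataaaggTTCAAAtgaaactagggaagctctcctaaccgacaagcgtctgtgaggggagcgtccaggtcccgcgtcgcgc
Plk1: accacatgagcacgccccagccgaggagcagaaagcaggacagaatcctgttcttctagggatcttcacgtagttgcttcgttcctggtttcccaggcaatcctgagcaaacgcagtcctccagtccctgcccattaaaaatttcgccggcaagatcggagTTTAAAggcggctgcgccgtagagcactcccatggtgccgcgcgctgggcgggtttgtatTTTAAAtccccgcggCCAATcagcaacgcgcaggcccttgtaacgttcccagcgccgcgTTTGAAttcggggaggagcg
Nusap1: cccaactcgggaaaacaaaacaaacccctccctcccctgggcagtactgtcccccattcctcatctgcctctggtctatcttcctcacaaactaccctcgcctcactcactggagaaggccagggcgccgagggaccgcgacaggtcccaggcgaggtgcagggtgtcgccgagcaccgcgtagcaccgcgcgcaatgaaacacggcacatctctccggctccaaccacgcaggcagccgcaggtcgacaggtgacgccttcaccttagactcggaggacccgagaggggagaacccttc
Pttg1: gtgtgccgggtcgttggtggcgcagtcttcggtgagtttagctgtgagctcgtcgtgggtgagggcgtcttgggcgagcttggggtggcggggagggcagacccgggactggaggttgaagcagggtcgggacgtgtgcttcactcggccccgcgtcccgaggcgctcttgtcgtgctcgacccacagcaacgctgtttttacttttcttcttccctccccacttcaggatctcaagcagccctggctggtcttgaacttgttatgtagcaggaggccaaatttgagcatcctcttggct
The Ube2c and Top2a promoters each hold 6 CCAAT matches, in contrast to 1 in Prc1 and Plk1. Cenpf carries both hexamers, and Plk1 carries 2 TTTAAA matches besides TTTGAA. Nuf2 and Mad2l1 also had none of the 3 motifs in this window, which says nothing about the factors that bind there.

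All members were expressed, and together they made up 0.549% of UMIs in control cells and 0.483% in sonKD cells (224462 and 154697 UMIs, or 5488 and 4829 CPM). A 3' assay yields 1 count per captured molecule whatever the transcript's length, but capture can differ between genes, so the order of levels is that of captured molecules. The 8 highest in control were Top2a, Cenpf, Tpx2, Ube2c, Birc5, Cdca8, Hmmr and Prc1. Top2a, the topoisomerase that untangles sister chromatids, led with 449.6 CPM (443 to 456) in control and 356 (349 to 362) in sonKD. Cenpf, a large protein of the outer kinetochore, stood at 384 CPM (378 to 390) in control and 349 (343 to 356) in sonKD. The intervals of these 2 genes did not overlap in control and overlapped in sonKD. Tpx2, which activates Aurora A on spindle microtubules, stood at 343 and 310.2 CPM, and Ube2c, the ubiquitin-conjugating enzyme of the anaphase-promoting complex, at 328 and 292. Hmmr and Prc1 were neighbours whose control intervals overlapped, 195 to 203 and 189 to 198 CPM; the other neighbours among the 8 did not overlap. At the low end were Aurkb (31.6 CPM in control, 27.0 in sonKD), Mad2l1 (36.7 and 34.7) and Nek2 (37.7 and 32.4). The median member stood at 108 CPM in control and 95.7 in sonKD.

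**Figure D1:**
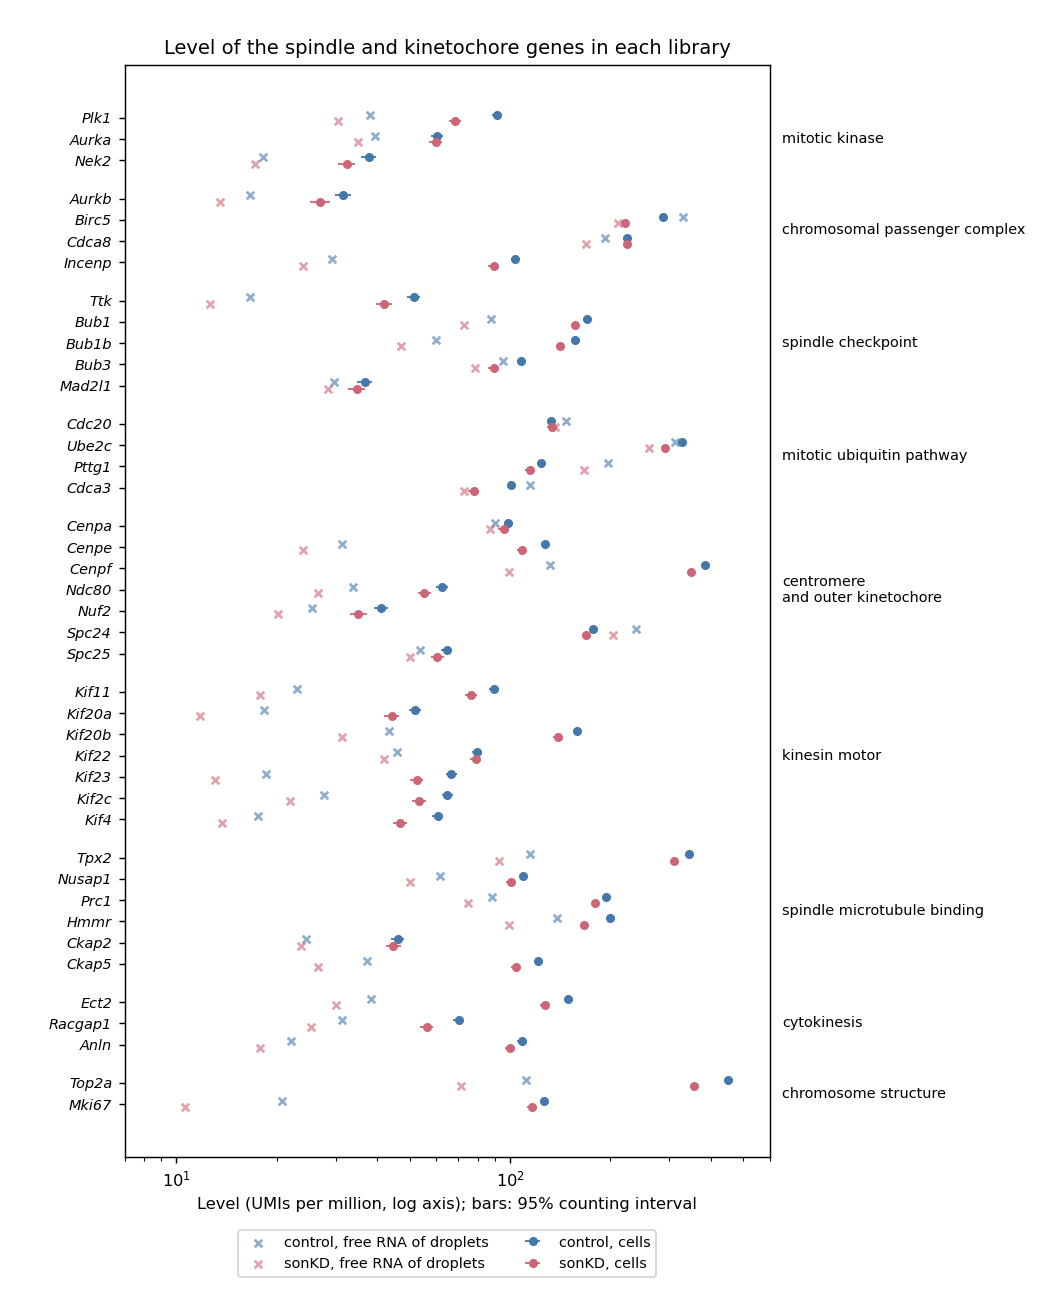
Level of each member in CPM (log axis) in control and sonKD cells, by role, with exact 95% counting intervals, and its level in droplets of 100 to 500 UMIs (free RNA). Levels span from 31.6 CPM for Aurkb to 449.6 for Top2a in control, and Spc24 and Pttg1 sit below their free RNA level in both libraries.

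Partners of one complex were captured at unequal levels. Of the chromosomal passenger complex, which corrects faulty attachments and guides cytokinesis, Birc5 (survivin) stood at 287 CPM and Cdca8 (borealin) at 224 in control, against 104 for the scaffold Incenp and 31.6 for the kinase Aurkb. Of the Ndc80 complex, which binds microtubules at the kinetochore, Spc24 stood at 177 CPM, against 64.6 for Spc25, 62.5 for Ndc80 and 41 for Nuf2. The order in both complexes was that of captured molecules and not of protein. Free RNA, measured in droplets of 100 to 500 UMIs, held members at 3213 CPM in control and 2561 in sonKD. It exceeded the level in cells for Birc5, Cdc20, Pttg1, Cdca3 and Spc24 in control and for Cdc20, Pttg1 and Spc24 in sonKD. The share of all genes for which it did so was not counted. Spc24 in free RNA stood at 239 CPM in control, above its 177 in cells. Mki67, the surface protein of mitotic chromosomes, was at the other end, 6.10 times its free RNA level in control and 10.9 times in sonKD. The level of Spc24, Pttg1 and Cdc20 in cells was thus no higher than in free RNA in either library, and that of Ube2c was close to it, at 1.05 and 1.12 times.

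Members varied together over the cells of each library. Thinned cells numbered 4710 in control and 2622 in sonKD, after 268 and 109 shallower cells were left out. Over these, the 820 pairs of members had a median Pearson r of 0.043 in control and 0.048 in sonKD on log-transformed counts, against 0.0011 in each library for 24756166 pairs of 7037 genes. An r above 0.1 was found in 104 member pairs (12.7%) in control, where 0.0681% of all gene pairs had one, and in 128 (15.6%) in sonKD, where 0.0645% did. Of those, 87 were above 0.1 in both libraries. Across the 820 pairs, which share genes, the r of control and the r of sonKD were themselves correlated at 0.86. Single coefficients are small, most counts in thinned cells are low, and all points share a library, so they are given as descriptions.

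The highest pair in both libraries was Ube2c with Cenpf, at r = 0.33 in each, followed in mean r by Prc1, which crosslinks antiparallel microtubules of the spindle midzone, with Top2a (0.25 and 0.29). Ube2c also paired with Nusap1, a microtubule bundler near chromosomes (0.26 and 0.26), with Top2a (0.25 and 0.27), with Prc1 (0.24 and 0.25), and with Tpx2 (0.22 and 0.24). Cenpf paired with Top2a (0.25 and 0.26), Prc1 (0.24 and 0.24), Nusap1 (0.24 and 0.23) and Tpx2 (0.22 and 0.26). The 10 highest pairs all lay among Ube2c, Cenpf, Top2a, Prc1, Nusap1 and Tpx2, and 4 of these 6 were above 300 CPM in control. For 29 members in control and 26 in sonKD, the partner with the highest r was Ube2c or Cenpf. The level of a member and its median r ran together across the 41 genes (Spearman correlation 0.57 in control, 0.61 in sonKD), which is across genes and not samples. Spc24, Mad2l1, Nuf2 and, in control, Pttg1 had the lowest median r with other members, 0.0046 for Spc24 in control and 0.014 for Mad2l1 in sonKD. Low r and a level near free RNA did not always go together. Ube2c, with a median r of 0.104 in control and 0.115 in sonKD, was near free RNA. Cdc20, with 0.042 in control and 0.053 in sonKD, was below it. Nuf2 and Mad2l1, both of low median r, stood at 1.61 and 1.24 times free RNA in control. Pairs within a role had nearly the median r of pairs of different roles, a difference that was not tested: the median was 0.045 in control and 0.048 in sonKD for 86 pairs of the same role, against 0.042 and 0.048 for the other 734.

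**Figure D2:**
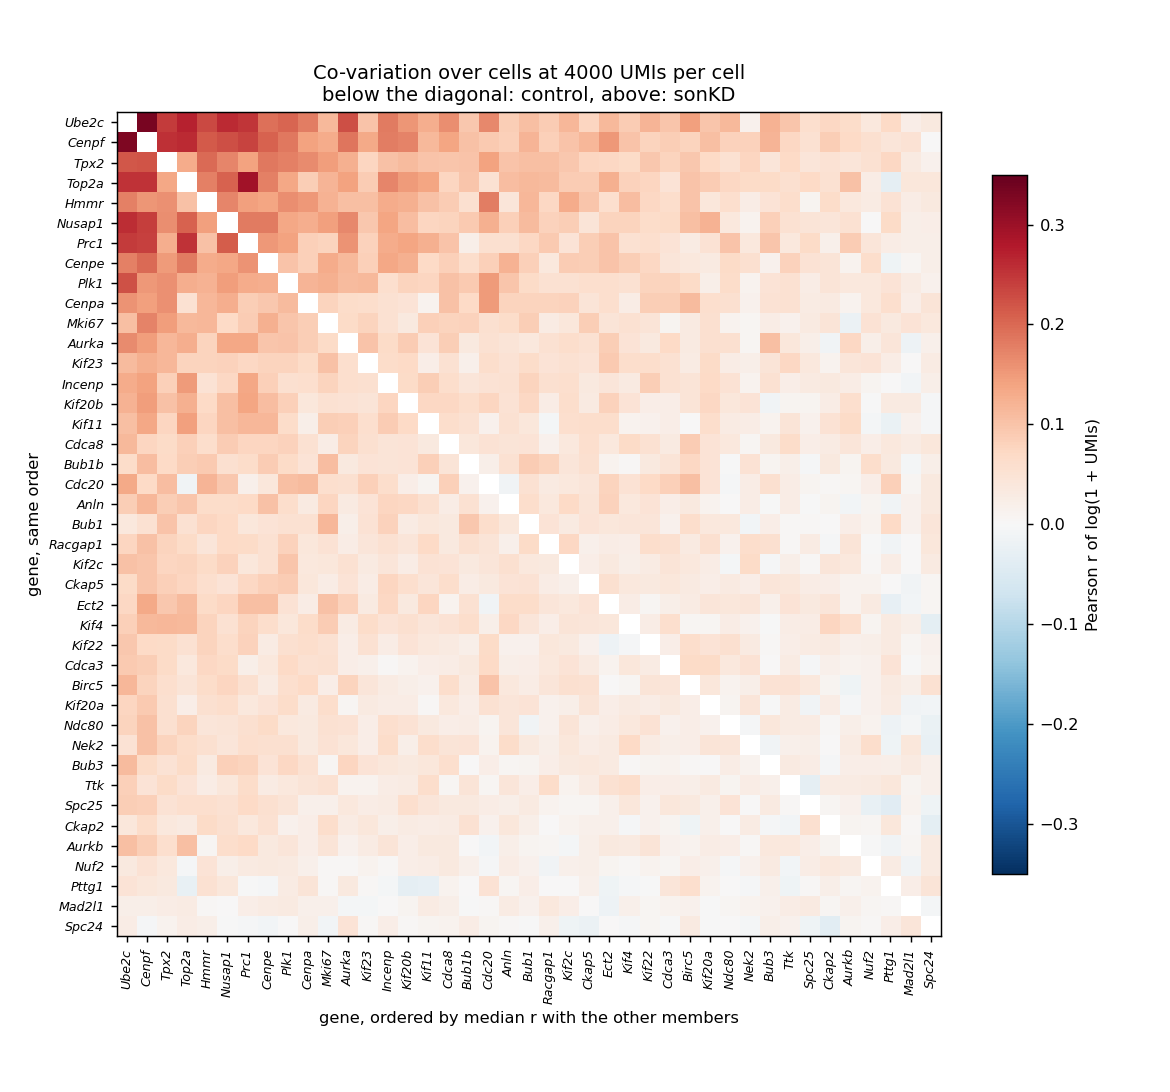
Pearson r of log-transformed thinned counts for every pair of members, control below the diagonal and sonKD above it, with genes ordered by their median r with the other members. Ube2c and Cenpf lead in both libraries, with r = 0.33 for their pair, and Mad2l1 and Spc24 come last.

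How far each member varied with a G2/M score was read from 23 other G2/M genes that hold no member. Their sum averaged 11.2 UMIs per thinned cell in control and 10.3 in sonKD. The ranking thus carries counting error, and the folds are not amplitudes over the cycle itself. The 25% of cells with the most UMIs of these genes were set against the 25% with the fewest, 1177 cells each in control and 655 each in sonKD; these are ranges of a score and not cell types. Summed members averaged 16.1 UMIs per cell in the low range and 28.5 in the high range in control, a 1.77-fold difference, and 12.7 and 25.2 in sonKD, a 1.98-fold difference. The median member differed by 0.76 on the log2 scale in control and 0.84 in sonKD, against 0.029 and 0.075 for 7017 genes. More than 1.5-fold was found for 26 members in control (1.45% of all genes) and 33 in sonKD (3.88% of all genes). More than 2-fold was found for 8 members in control (0.214%) and 17 in sonKD (0.499%).

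Nusap1 had the widest swing in control, 3.24-fold, and 3.13-fold in sonKD. Ube2c followed with 3.10-fold and 3.29-fold, and Plk1, the polo-like kinase of mitotic entry and centrosome maturation, with 2.60-fold and 3.16-fold. Aurka, the spindle pole kinase that Tpx2 activates, swung 2.38-fold and 3.12-fold. Prc1 (2.31 and 2.55), Cenpf (2.20 and 2.78), the kinetochore kinesin Cenpe (2.16 and 2.35) and the centromeric histone Cenpa (2.07 and 2.52) also passed 2-fold in both libraries. At the other end, Spc24 differed 1.12-fold and 1.10-fold, Pttg1, the securin that restrains separase, 1.15-fold and 1.43-fold, and Nuf2 1.26-fold and 1.40-fold. Of the checkpoint genes, Bub1 swung 1.33-fold in control and 1.63-fold in sonKD, Bub1b 1.39 and 1.5, Bub3 1.49 and 1.51, Mad2l1 1.32 and 1.22, and Ttk, the kinase that starts the checkpoint, 1.83 and 1.79. The swing was larger in sonKD for 33 of 41 members, but the counting intervals of the libraries were apart for 2, and the difference was not tested. The share of all genes with a larger swing in sonKD was not counted. Their median swing was also larger in sonKD (0.075 on the log2 scale) than in control (0.029).

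**Figure D3:**
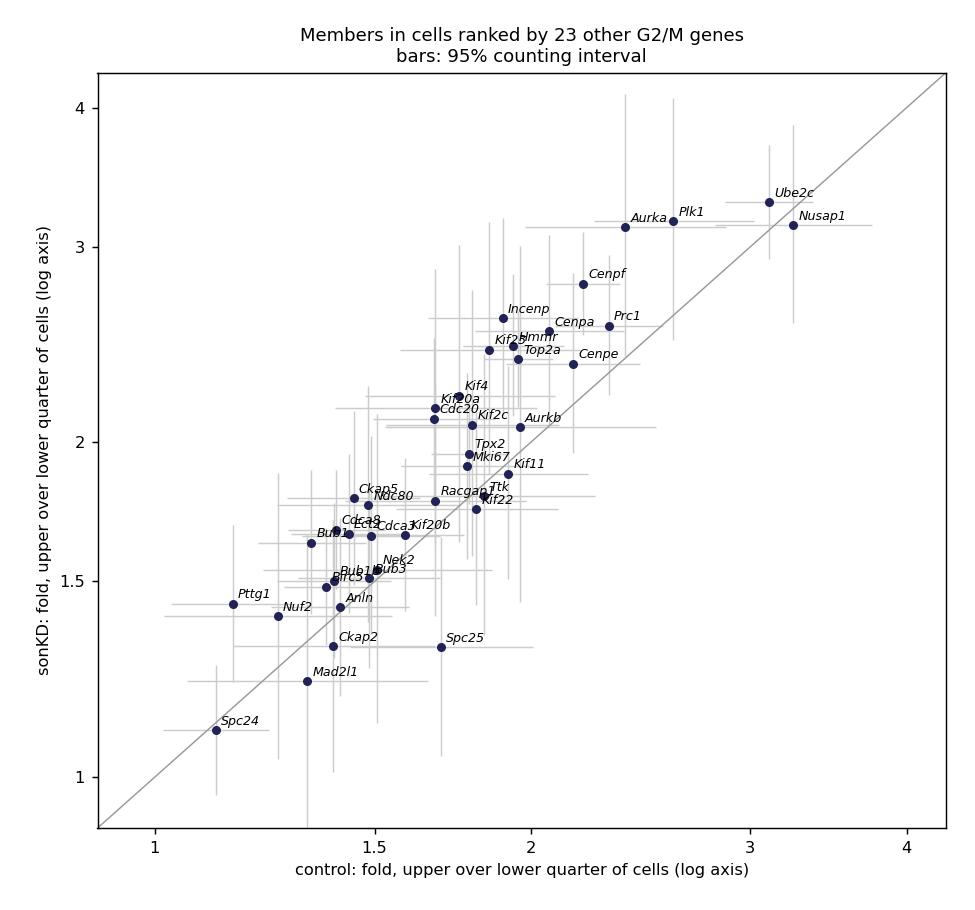
Fold difference of each member between the upper and lower 25% of cells by 23 other G2/M genes, control on the horizontal and sonKD on the vertical axis (both log axes), with 95% counting intervals and the line of equal fold. Nusap1 (3.24 and 3.13) and Ube2c (3.10 and 3.29) lie farthest out and Spc24 (1.12 and 1.10) lowest, with 33 of 41 members above the line. The median swing of 7017 genes was also larger in sonKD, and the share of them above the line was not counted.

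The summed members per thinned cell showed how the module was spread over each culture. In control the sum ran from 0 to 82 UMIs, with a median of 19 and quartiles of 15 and 26, and in sonKD from 0 to 66, with a median of 17 and quartiles of 12 and 23. The mean was 21.2 and 18.5 UMIs, and the variance over the mean was 4.40 and 4.91, above the 1 of pure counting. There was 1 broad peak with a right tail in each library and no separate high class. At least 34 member UMIs, the control 90th percentile, were held in control by 10.8% of cells (9.91 to 11.7), and in sonKD by 7.09% (6.14 to 8.14). At most 5 were held by 62 control cells (1.32%, 1.01 to 1.68) and 117 sonKD cells (4.46%, 3.70 to 5.32). These low cells were shallower before thinning, with medians of 5279 and 6608 UMIs, and had mitochondrial shares of 4.94% and 6.22%, ribosomal shares of 22.8% and 26.5%, and on average 11.1 and 8.49 UMIs of S-phase genes. With a limit of 5% mitochondrial UMIs, chosen after the data were seen, the shares were 0.781% and 2.02%. Cells low in members were the larger share in sonKD, and cells high in members the larger share in control.

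**Figure D4:**
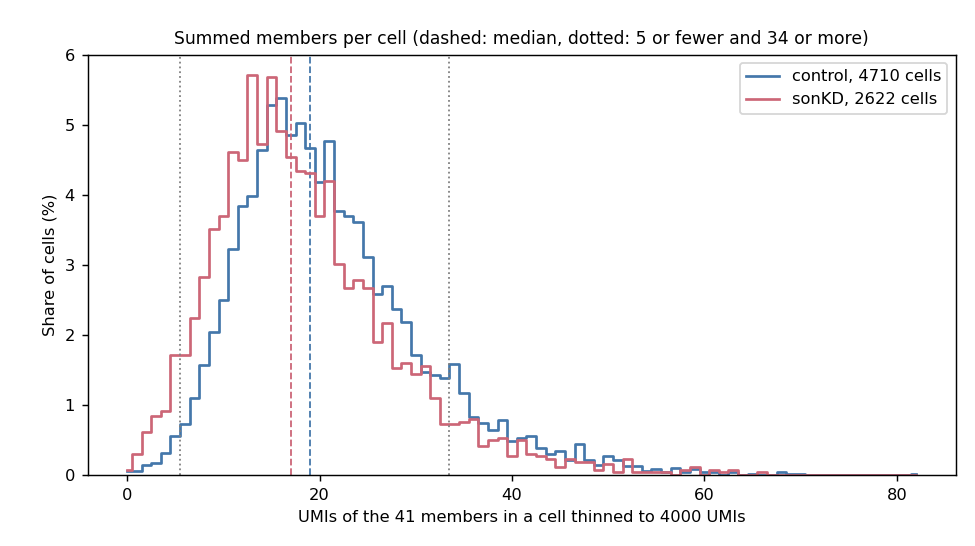
Share of cells by summed UMIs of the 41 members after thinning to 4000 UMIs, control and sonKD; dashed lines are medians, and dotted lines bound 5 or fewer and 34 or more UMIs. Both curves have 1 peak with a tail to the right, and that of sonKD lies further left, with medians of 17 against 19 UMIs.

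The sum went with other G2/M genes (r = 0.49 over control cells, 0.54 over sonKD cells) and with S-phase genes at r = 0.04 in control and 0.26 in sonKD. It went down with the ribosomal share (-0.21 and -0.29) and the mitochondrial share (-0.13 and -0.25), and up with depth before thinning (0.30 and 0.40); whether these move the members was not tested. Genes outside the members that were most like the sum, by mean r over both libraries among 6996 genes, were Arl6ip1 (0.35 and 0.34), the chaperone Hspa8, the tubulin Tubb4b, the histone H2afx, Cks2, a partner of cyclin-dependent kinase, and the spindle pole gene Aspm. Cdca2, the cohesin protector Sgo2a, the kinetochore scaffold Knl1, the condensin Smc4, Jpt1 and the ubiquitin-conjugating enzyme Ube2s came next. Among the least like were Rpl37a, Mdm2, Ftl1-ps1 and Fth1, with mean r of -0.21 to -0.18.

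Between the libraries, members were slightly lower in sonKD as a whole. The median log2 ratio of sonKD over control, on the CPM scale, was -0.19 over 41 members, of which all passed the filter of 10 CPM, and -0.12 over all 8063 genes tested. A ratio below 0 was found for 39 members, and for 74.9% of all genes, and 30 members lay below the all-gene median. A sonKD level of at most 80% of control, the limit of size used here, was found for 6 members (14.6%), against 10.2% of all genes, and a control level of at most 80% of sonKD for none, against 3.5%. None passed 1.5-fold in either direction, against 1.23% of all genes lower and 0.992% higher. The counting interval lay wholly below 0 for 34 members, against 51.5% of all genes, and wholly above 0 for none, against 12.3%. Set against the all-gene median in place of 0, the interval lay below for 19 members (24.8% of all genes) and above for 5 (26.6%). These intervals had a median width of 0.14 for members and 0.22 for all genes, so the counts of intervals do not compare genes at equal width. Scaling moved these counts. With TMM factors the all-gene median was -0.03, the median member -0.10, 33 members were below 0 (56.6% of all genes) and 1 was at or below 80% (4.59%). In CPM without mitochondrial and ribosomal protein genes the median member was -0.12, with 34 below 0 (59.7%) and 1 at or below 80% (5.49%). In cells of 5000 to 15000 UMIs, an alternative chosen after the data were seen, the median member was -0.34 and 23 were at or below 80% (17.1% of all genes). TMM factors and the other total shift all genes alike and leave the 30 members below the all-gene median as they are; the count was 34 in cells of 5000 to 15000 UMIs, 27 with a limit of 5% mitochondrial UMIs, 28 with a UMI minimum per library and 27 after thinning.

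**Figure D5:**
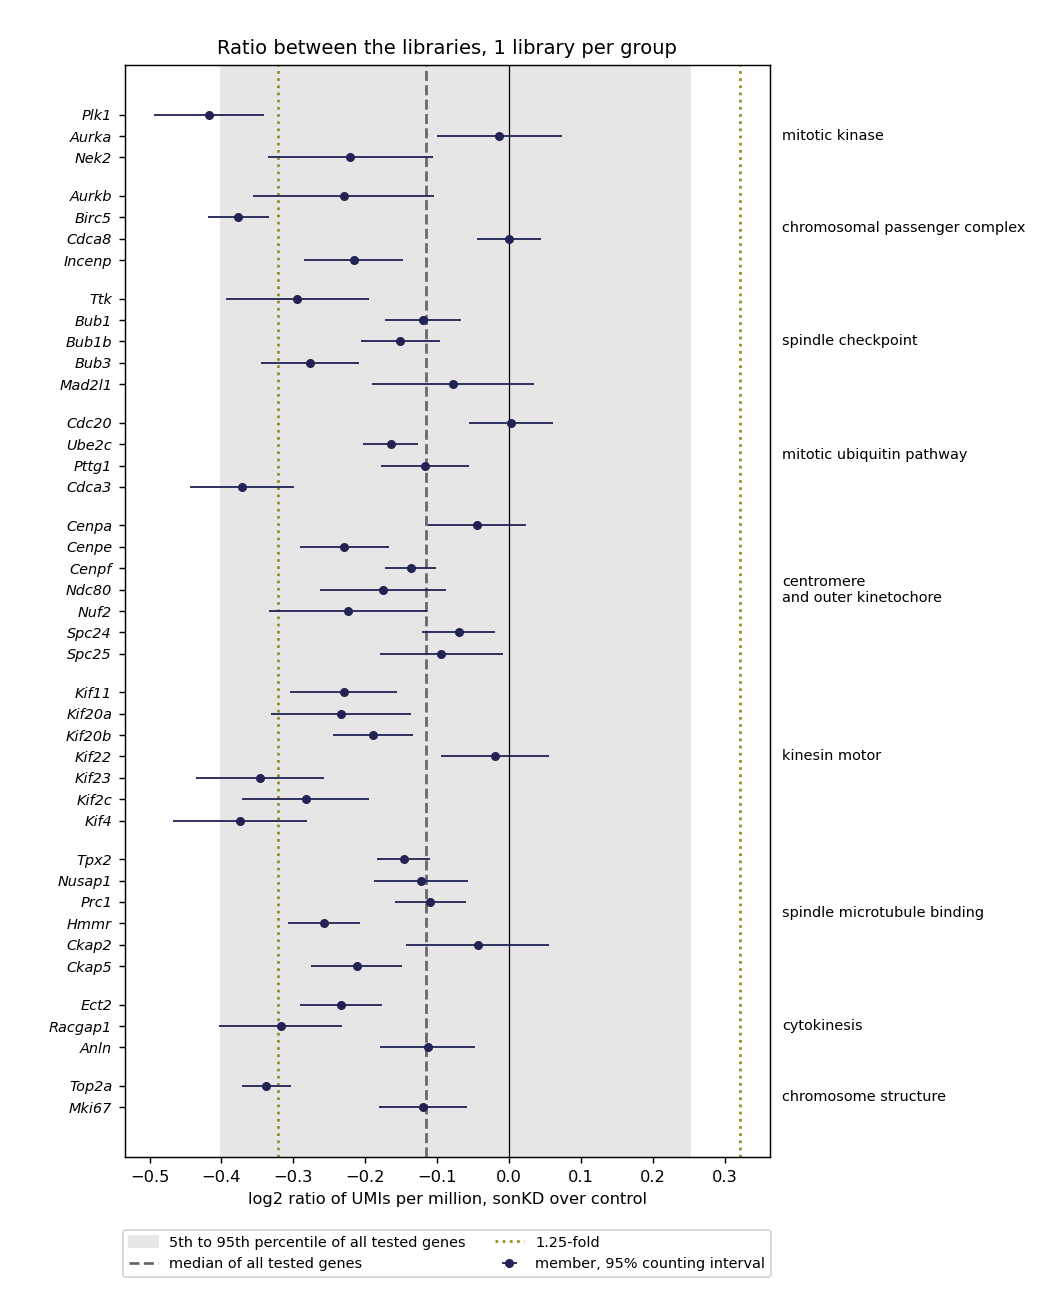
Log2 ratio of each member's CPM, sonKD over control, with exact 95% counting intervals, by role; the band is the 5th to 95th percentile of all 8063 tested genes. Of the members, 6 lie beyond the dotted line that marks 80% of the control level, from Plk1 at -0.42 to Top2a at -0.34, and Cdc20 and Cdca8 lie at 0.00.

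The lowest ratios came from several roles. Plk1 stood at 91.4 CPM (88.5 to 94.3) in control and 68.4 (65.6 to 71.4) in sonKD, a log2 ratio of -0.42 (-0.49 to -0.34). Birc5 stood at 287 CPM in control and 221 in sonKD (-0.38, -0.42 to -0.33). The chromokinesin Kif4 stood at 60.6 and 46.8 CPM (-0.37, -0.47 to -0.28). For all of these the level intervals of the libraries did not overlap. Cdca3, a trigger of mitotic entry, stood at 101 and 77.9 CPM (-0.37, -0.44 to -0.30). Kif23, the kinesin of centralspindlin, stood at 66.7 and 52.4 CPM (-0.35, -0.43 to -0.26), and its partner Racgap1 at 70.1 and 56.3 (-0.32, -0.40 to -0.23), or 80.2% of control, just outside the limit of 80%. Top2a had a ratio of -0.34 (-0.37 to -0.30). Ttk, the eighth lowest, stood at 51.4 and 41.9 CPM (-0.29, -0.39 to -0.19). In GENCODE M21 on GRCm38 the 6 genes past the limit lie at chr7:122159439-122169873 (Plk1, plus strand), chr11:117849251-117855743 (Birc5, plus strand), chrX:100625737-100727214 (Kif4, plus strand), chr6:124829547-124833701 (Cdca3, plus strand), chr9:61915905-61946774 (Kif23, minus strand) and chr11:98992943-99024189 (Top2a, minus strand). In free RNA all 41 members, these 6 among them, were also lower in sonKD, as were 80% of all genes tested (Birc5 at 211 against 331 CPM, Top2a at 71.1 against 111 and Kif4 at 13.7 against 17.6), and the part of free RNA in the ratios was not tested.

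The highest ratios were at the control level. Cdc20, which activates the anaphase-promoting complex, stood at 133 CPM in both libraries (0.00, -0.06 to 0.06), and Cdca8 at 224 in both (0.00, -0.04 to 0.05). Aurka stood at 60.5 and 59.9 CPM (-0.01, -0.10 to 0.07), and Kif22, a chromokinesin that pushes chromosomes to the equator, at 79.9 and 78.8 (-0.02, -0.09 to 0.06). Their intervals include 0, as do those of Mad2l1, Cenpa and Ckap2. Members of one complex or pathway thus had unequal ratios: Birc5 at -0.38 and Cdca8 at 0.00 in the passenger complex, with intervals apart, and Plk1 at -0.42 and Aurka at -0.01 among the kinases.

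By role, summed ratios ranged narrowly. Chromosome structure (Top2a and Mki67) was lowest at -0.29 (-0.32 to -0.26), and the centromere and outer kinetochore (7 genes) was highest at -0.13 (-0.15 to -0.11). In the latter, Cenpe was at -0.23, Nuf2 at -0.22, Ndc80 at -0.18, Cenpf at -0.14, Spc25 at -0.09, Spc24 at -0.07 and Cenpa at -0.04. TMM factors, which move the median of all genes by 0.09, put Spc24 at 0.02. The 3 mitotic kinases summed to -0.24, with the centrosome kinase Nek2 at -0.22. The passenger complex summed to -0.20, with Aurkb at -0.23 and Incenp at -0.22. The checkpoint genes summed to -0.17: Bub3 stood at -0.28, Bub1b at -0.15, Bub1 at -0.12 and Mad2l1 at -0.08. The mitotic ubiquitin pathway summed to -0.15, with Ube2c at -0.16 and Pttg1 at -0.12. The 7 kinesins summed to -0.22: the depolymerase Kif2c stood at -0.28, the pole-separating motor Kif11 and the midzone motor Kif20a at -0.23 each, and Kif20b at -0.19. Spindle microtubule binders summed to -0.16, from Hmmr at -0.26 and the microtubule polymerase Ckap5 at -0.21 over Tpx2 at -0.15, Nusap1 at -0.12 and Prc1 at -0.11 to Ckap2 at -0.04. Cytokinesis genes summed to -0.21, with the exchange factor Ect2 at -0.23 and the cortical scaffold Anln at -0.11, and Mki67 stood at -0.12. Cenpf shares up to 194 bases of its 3' end with 16 other annotated genes. Of these, 14 are among the genes listed, so its counts could have been split. Ndc80 and Mki67 share 202 and 190 bases with 1 other annotated gene or pseudogene each, which is not among the genes listed. The effect on the counts was not tested. Without these 3 members the median ratio of the other 38 was -0.21. Of the members, 16 overlap a gene annotated on the opposite strand, among them Nusap1 (Oip5), Cdc20 (Elovl1), Ube2c (Tnnc2), Prc1 (Rccd1), Bub3 (Fgfr2), Kif4 (Pdzd11) and Kif20a (Cdc23), and whether counting used the strand is not given in the sources used here.

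Per cell, the same direction was seen at equal depth. After thinning, members had a UMI in 11% to 73.7% of control cells (median 32.1%) and in 9.65% to 64.6% of sonKD cells (median 29.3%), from Aurkb to Top2a in both. The share was smaller in sonKD for 41 of 41 members, against 72.5% of 7037 genes, with intervals apart for 23, against 24.3%. No member had a larger share with intervals apart, against 5.5% of genes. Before thinning it was smaller for 3 of 41, with medians of 51.9% and 57%. In those unthinned cells depth differed as given above, and the share of all genes was not counted. Kif4 had a UMI in 20.3% of control cells and 14.3% of sonKD cells, Plk1 in 28.6% and 21.2%, and Top2a in 73.7% and 64.6%. Sums over cells cannot tell fewer cells in G2 or M phase from less RNA of these genes per cell. In ranges of cells by UMIs of other G2/M genes, the summed-member log2 ratio was -0.28 (-0.31 to -0.25) at 0 to 8 UMIs, -0.08 at 9 to 10, -0.11 at 11 to 13 and -0.10 at 14 to 36. The median of 7037 genes in the same ranges was -0.12, -0.11, -0.10 and -0.10. The range of 0 to 8 UMIs held 28.7% of control and 36.2% of sonKD cells, and that of 14 to 36 held 26.3% and 21.1%. The median member ratio was -0.25, -0.12, -0.09 and -0.09. Both member values were below the all-gene median by more than 0.1 in the range of 0 to 8 UMIs alone. Cells of that range still differed in other G2/M UMIs (mean 6.38 in control and 5.98 in sonKD). In the other 3 ranges both values were near that median. The other G2/M genes were themselves lower in sonKD, with a summed log2 ratio of -0.10. Equal UMIs of these genes need not mean equal phase, and the 2 readings were not told apart.

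Other cell cycle lists and stem cell markers, chosen with earlier results of these data known, were set beside the members, whose summed ratio was -0.18. Summed ratios were -0.07 for other inner and -0.14 for other outer kinetochore genes. They were -0.16 for cohesin, condensin and separase, -0.21 for the anaphase-promoting complex and -0.05 for other spindle motors and binders. Sums follow the most abundant genes of a list. Ube2s alone, at -0.37, held 28622 of the 67398 control UMIs of the anaphase-promoting complex list. Other G2/M genes summed to -0.10, S-phase genes to -0.15 and stem cell markers to 0.12. Medians over genes follow. Other inner kinetochore genes had a median of -0.14, with 2 of 19 at or below 80% of control and 1 as far above: Cenpi at -0.35 and Cenpw at 0.47. Other outer kinetochore genes had a median of -0.20, with 1 of 15 lower; the farthest were Spdl1 at -0.32 and Nsl1 at -0.24. Cohesin, condensin and separase genes had a median of -0.16, with 2 of 16 lower, the separase Espl1 at -0.36 and the cohesin Smc1a at -0.34. Genes of the anaphase-promoting complex had a median of -0.13, with 4 of 16 lower and 2 higher. The lower ones were the subunits Anapc2 at -0.79 and Anapc15 at -0.62, the coactivator Fzr1 at -0.48 and the ubiquitin-conjugating enzyme Ube2s at -0.37, and the higher ones the subunits Anapc13 at 0.53 and Cdc26 at 0.41; all but the first 2 are named after their values were seen. Other spindle motors and binders had a median of -0.16 with 2 of 21 lower, Spag5 at -0.37 and Kif18a at -0.35. Other G2/M genes had a median of -0.21 with none of 22 past the limit; G2e3 was at -0.32 and Pbk at -0.30. S-phase genes had a median of -0.17 with 5 of 29 lower, among them Uhrf1 at -0.59 and E2f1 at -0.45. Stem cell markers had a median of -0.07 with none of 10 past it, Dppa5a at 0.27 and Pou5f1 at -0.27. Each share of lower genes stands beside the 10.2% of all genes.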

How the data were processed

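Per the file headers, the authors made the deposited UMI counts per gene and barcode with Cell Ranger 7.1.0, and the deposited matrices list every barcode with no cells selected. Per the submitters' processing notes the build was mm10; the annotation, and whether intronic reads were counted, are not given in the sources used here. Counts were summed over the cells of each library and divided by their total to give CPM. Groups came from the sample titles, 1 library each. Members and gene lists were chosen with earlier results of these data known. The genes named are Son, all members by role, the 8 lowest and 4 highest member ratios, the 8 highest levels, the 10 member pairs of highest mean r, the 2 genes of each list farthest from 0, and the 12 most and 5 least like other genes, of which 1 is not reported here. Ratios used genes averaging 10 CPM or more over both libraries and no pseudocount. Levels have exact Poisson intervals, ratios exact conditional binomial intervals, and shares Clopper-Pearson intervals. Correlations used the log of 1 plus the thinned count, for genes with a UMI in at least 5% of thinned cells. Scrublet, in scanpy 1.11.5, called 0.0603% of control and 0.0366% of sonKD barcodes, under the 0.5% of a working call, so doublets were kept, and an alternative removed the highest scores at 0.8% per 1000 cells. TMM factors, an alternative scaling, came from edgeR 4.0.16, and no edgeR test was run. 3' ends were compared with blastn 2.17.0. The scripts were tested on simulated data.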

Additional observations from a re-analysis of the deposited data

How the results depend on the processing

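No paired analysis was possible because each group held 1 sample and the labels give no replicate numbers. Of 107 alternative values for 16 summary results, 81 stayed near the reported value, 25 moved and 1 changed sign; of 420 for 42 single genes, 323, 95 and 2 did. Sign changes of single genes were counted only where the reported interval excluded 0, so other members could change sign uncounted. The 2 counted were those of Spc24, 0.020 with TMM factors and 0.0036 in CPM without mitochondrial and ribosomal protein genes. Under these scalings the median member ratio was -0.10 and -0.12, and 1 member in each was at or below 80% of control. Alternatives chosen after seeing the data were cells of 5000 to 15000 UMIs (median -0.34, minus all genes -0.19, 23 at or below 80%), members without shared 3' ends, and, for cells with at most 5 member UMIs, limits of 5% mitochondrial UMIs (0.781% control, 2.02% sonKD) and at least 5000 UMIs (0.851% and 3.60%). Without thinning, which compares cells of unequal depth, the ratio of mean summed members changed sign to 0.33, 3 members had a smaller share in sonKD, and 16.1% of sonKD cells passed the control 90th percentile; at 6000 UMIs 5.79% did. Member pairs above 0.1 numbered 46 in control and 51 in sonKD at 2500 UMIs, 172 and 211 at 6000, and 393 and 520 without thinning, with median r of 0.097 and 0.13 without thinning and 0.031 in sonKD at 2500. Upper and lower 10% of cells gave median amplitudes of 1.17 and 1.44. Depth limits the per-cell values: the median member had a UMI in 32.1% of thinned control cells.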

Other observations

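Barcodes with more than 10% mitochondrial UMIs, which were not counted as cells, also held member transcripts. Over 625 such barcodes in control and 1056 in sonKD, members made up 6180 and 5296 of every 1000000 non-mitochondrial UMIs, against 5706 and 5041 in cells. In both libraries the level in these barcodes was above that in cells, and sonKD was the lower one there too.

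Across the 41 members, transcript length ran with the ratio of the level in cells to that in free RNA (Spearman correlation 0.72 in control and 0.73 in sonKD, across genes, which are not replicates). Length and exon number are those of the longest transcript of each gene in the GENCODE M21 basic annotation, which need not be the one captured. Mki67 stood at 6.10 and Cenpe at 4.06 times free RNA in control and Spc24 at 0.744 times, but Mad2l1, with a transcript of 7557 bases, stood at 1.24 times. Members had a median transcript length of 3236 bases and 14 exons, against 3064 bases and 9 exons for 8061 tested genes in the annotation. Members with 10 or more exons had a median log2 ratio of -0.21 (28 genes), against -0.15 for 4006 genes of that kind. Members with fewer exons had -0.12 (13 genes), against -0.07 for 4055.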
